A study of Mus musculus with 8 samples.

Results

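Fibroblasts of arthritic mouse joints were compared between animals given an antibody against IL-17A and animals given an antibody against TNF. The members were the cells that the deposited annotation placed in 1 of 5 fibroblast classes (lining, Mmp3+, Il6+, Cd200+ and Pi16+) and that came from hTNFtg197 animals treated with Il23mc and either inhibitor. There were 9392 such cells, 5087 from 3 IL-17-inhibited and 4305 from 3 TNF-inhibited animals, of 21731 annotated fibroblasts and 24227 annotated cells in all. Counts of unique molecular identifiers (UMIs) were summed per animal, so that the animal was the replicate.

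Every arthritic animal carried the human TNF transgene of the strain B6-Tg(TNF)197Gkl, was 8 to 10 weeks old and had received Il23mc for 9 days. The TNF-inhibited group also received anti-hTNF (TNFi) and the IL-17-inhibited group anti-mIL-17a (IL-17i). A further 3 arthritic animals had Il23mc and no inhibitor, and healthy wild types (WT) were untreated. Viable CD45-negative cells of ankle and wrist synovial joints were pooled with hashtag antibodies that mark the animal, 3 arthritic animals and 1 WT animal to a droplet library, and each treatment was a library of its own. Treatment and library were therefore the same split and cannot be told apart among the arthritic animals. The WT fibroblasts of the IL-17i library (413) and of the TNFi library (541) served as a check of the library, with 1 WT animal in each.

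IL-17A signals through a receptor of the chains Il17ra and Il17rc and the adaptor Act1, encoded by Traf3ip2. It activates NF-kB and C/EBP factors, in part through the atypical IkB protein encoded by Nfkbiz, and stabilizes short-lived mRNAs of cytokines and chemokines. TNF signals through its own receptors to NF-kB, and in joint fibroblasts the 2 cytokines are known to act together on inflammatory and matrix-degrading genes. Lining fibroblasts form the surface layer of the synovium, and the other classes lie beneath it or are named here only by their marker genes.

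Some facts of the libraries bear on every comparison. Fibroblast UMIs per animal were 12372684 to 34962428 in the TNF-inhibited and 21928368 to 36786390 in the IL-17-inhibited group. The groups differed in sex, as read from Xist and Y-linked UMIs: TNF-inhibited animals 1 and 2 and IL-17-inhibited animal 1 were male, and the other 3 were female. The stress score of the deposited annotation also stood apart, with a median over the fibroblasts of 0.638, 0.698 and 0.650 in the IL-17-inhibited and 0.747, 0.889 and 0.752 in the TNF-inhibited animals. It was 0.674 and 0.725 in the WT animals of these libraries, and its part in the results was not tested. The animal's own hashtag had the highest count in at least 96.2% of the fibroblasts of each inhibitor-treated animal. In the cells assigned to the WT animals that share was 9.93% in the IL-17i and 22.7% in the TNFi library, and 17.7% and 23.1% of these cells held a Y-linked UMI while 67.3% and 65.4% held Xist without one, so the cells assigned to each WT animal were of both sexes, and how many came from other animals was not determined. The 2 libraries shared 51 barcodes, 7 of them annotated. The cells carried the defining fibroblast markers, with the summed level of Col1a1, Col1a2, Col3a1, Pdgfra, Dcn, Lum, Pdpn, Thy1 and Fap at 21264 to 22619.6 CPM (UMI counts scaled to a common library total) in IL-17-inhibited and 22071 to 29222 in TNF-inhibited animals.

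In edgeR's quasi-likelihood test, 1090 of 14348 genes (7.6%) differed at an adjusted p under 0.05. Of these, 652 (4.54%) were higher and 438 (3.05%) were lower in IL-17-inhibited fibroblasts. Among genes of at least 10 CPM whose groups did not overlap, the 10 largest falls were Ctla2a, Saa2, Lcn2, U90926, Fpr2, Mmp12, Mt3, Csf3, Wfdc21 and Saa1, and the 10 largest rises were Cd74, Hist1h2ap, H2-Aa, Il2rg, Scg3, Tagln, H2-Eb1, Acta2, Ccnd1 and Flt1. Over all genes, the groups of 3 did not overlap for 25.4%. The calls depended on which animals entered: leaving out 1 of the 6 in turn gave 260 to 640 higher and 174 to 503 lower genes. The fewest higher genes were left without TNF-inhibited animal 2 (260 higher, 213 lower) and the fewest lower without IL-17-inhibited animal 2 (321 higher, 174 lower), and without IL-17-inhibited animal 1 there were 377 higher genes. With the 6 animals alone in the fit there were 301 higher and 194 lower. When the difference between the WT animals of the 2 libraries was subtracted, a fit that rests on 1 WT animal per library, 0 genes passed in either direction and 1028 had an unadjusted p under 0.05, against 3236 before. Of the 652 higher genes, 385 (59.0%) had the same sign in the WT animals and 107 (16.4%) a WT difference of the same sign at least 0.5 times as large. For the 438 lower genes these were 283 (64.6%) and 100 (22.8%). Of the 10 largest falls named above, 9 shared the WT sign and 6 (60%) had such a WT difference, and their median went from -2.24 to -0.72 with it subtracted. Of the 10 largest rises these were 9 and 3 (30%), and the median went from 2.44 to 1.92. Among all tested genes with a positive or negative change, 53.9% and 54.5% shared the sign with WT.

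Promoter stretches are shown first for Saa1, Saa2, Saa3 and Il6, 4 of the genes of the IL-17 response that fell and hold a motif, since C/EBP and NF-kB factors are the known nuclear arms of the pathway. Of the 10 called members of that list, 8 had an entry in the RefSeq promoter table (GRCm38.p6). The 250 bases before the start were searched on both strands for a C/EBP-like motif (TTGCNNAA), an NF-kB-like motif (GGGA, any 4 bases, CC), an interferon-stimulated response element (GAAA, any 2 bases, GAAA) and the CArG box of serum response factor. The capitals mark the C/EBP-like motif in the first 4 lines, the NF-kB-like motif in the fifth, overlapping matches on the 2 strands.
Saa1, chr7:46743130-46743187, minus strand: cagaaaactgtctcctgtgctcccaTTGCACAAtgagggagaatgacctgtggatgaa
Saa2, chr7:46751625-46751682, plus strand: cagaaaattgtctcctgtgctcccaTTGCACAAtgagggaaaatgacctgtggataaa
Saa3, chr7:46715743-46715800, minus strand: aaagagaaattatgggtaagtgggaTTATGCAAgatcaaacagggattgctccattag
Il6, chr5:30012961-30013018, plus strand: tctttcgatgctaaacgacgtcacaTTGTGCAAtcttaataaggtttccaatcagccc
Il6, chr5:30013045-30013105, plus strand: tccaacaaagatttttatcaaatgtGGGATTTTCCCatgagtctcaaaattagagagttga

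The C/EBP-like motif was in 6 of the 8 (Lcn2, Il6, Saa1, Saa2, Saa3 and Steap4) and in 1 of the 6 list members that were tested, not called and had an entry (Csf2). It was in 9.56% of all 32851 promoters. The NF-kB-like motif was in 3 of the 8 (Il6, Steap4 and Il19) and in 5 of the 6 members not called (Cxcl1, Cxcl2, Cxcl3, Ccl20 and Cebpb), against 17.6% of all promoters. Saa1 and Saa2 are near-identical neighbours, so their 2 matches are not independent, and UMIs could be split between them. Over the whole comparison the contrast was small: among genes with an entry, the C/EBP-like motif was in 13.8% of 319 called lower, 10.5% of 467 called higher and 8.78% of 10122 not called. The NF-kB-like motif was in 27.3%, 33.4% and 26% of the same genes. In these gene counts, as for the list members, any entry of the gene could hold the motif. The shares of all promoters count each entry on its own. A match is only a run of letters in this window.

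The IL-17 response list held 22 tested genes, and 10 fell with IL-17 inhibition against TNF inhibition while 0 rose (12 and 0 in DESeq2, 13 and 0 at an unadjusted p under 0.05). The edgeR counts of this and the later lists over all fibroblasts stand beside 4.54% of all genes tested that rose and 3.05% that fell. For the other counts the background is larger. Over all genes DESeq2 called 843 higher and 589 lower, and 3236 of 14348 had an unadjusted p under 0.05 in either direction. The median of the 22 was -0.48 on the log2 scale, against -0.01 over all genes tested, and 18 were below 0. In the WT animals the median of the list was -0.23. Lcn2 (chr2:32384633-32388252), which encodes the iron-siderophore-binding protein lipocalin 2, stood at 1554, 1155 and 2367 CPM in IL-17-inhibited and at 7790.4, 10302 and 8511 in TNF-inhibited animals. All IL-17-inhibited values lay below all TNF-inhibited values, and the means were 1692 ± 618 and 8868 ± 1293 (SD, n = 3). The log2 fold change was -2.39 ± 0.28, adjusted p = 0.000469, and it was -2.30 within females and -2.55 within males, each from 2 against 1 animals. The WT animals of the same libraries were at 319 and 533, a log2 difference of -0.74, and the change less that difference was -1.65 and did not pass (adjusted p = 0.536).

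Log2 fold changes are given from here on in parentheses with their standard error and edgeR's adjusted p. The serum amyloid A genes, which encode acute-phase apolipoproteins, lie together on chromosome 7. Saa3, the form made by fibroblasts and macrophages in mice, made up a large part of the fibroblast UMIs, at 12107, 11052 and 19305 CPM in IL-17-inhibited and 58145, 58773 and 31719 in TNF-inhibited animals. The groups did not overlap (-1.81 ± 0.38, adjusted p = 0.0117).  Saa2 stood at 42.5, 33.5 and 45.4 against 157, 268 and 236 CPM (-2.44 ± 0.25, adjusted p = 0.000267). For Saa1 the values were 174, 128 and 222 against 573, 609 and 728 CPM (-1.86 ± 0.50, adjusted p = 0.0393), with no overlap. The WT cells moved the same way. Their Saa3 was at 818 and 2853 CPM and their Saa1 at 24.7 and 218 in the IL-17i and TNFi libraries, log2 differences of -1.80 and -3.14. With these subtracted, the change of Saa3 was -0.0054 and that of Saa1 1.28. Saa2 differed less in WT cells (-0.64), and its change less that difference was -1.80 and did not pass (adjusted p = 0.536). Saa3 lost the call without IL-17-inhibited animal 2 (adjusted p up to 0.0591) and Saa1 without any 1 of the 6 animals (adjusted p up to 0.148).

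Among secreted factors of the list, Il6 was at 1153, 1177 and 1019.9 CPM with IL-17 inhibition and at 2515, 1647 and 2511 with TNF inhibition, without overlap (-0.99 ± 0.16, adjusted p = 0.00352). Csf3, which encodes the granulocyte growth factor G-CSF, was at 62.5, 29.3 and 49.7 against 129, 201 and 215 CPM (-1.95 ± 0.39, adjusted p = 0.00943). Csf3 also differed between the WT cells, 3.62 and 26.1 CPM, and its sign turned to 0.90 with that difference subtracted. Il19, a cytokine of the IL-10 family, was near the detection limit, 0.182, 0.0616 and 0.25 against 1.25, 3.88 and 4 CPM (-4.12 ± 0.62, adjusted p = 0.00246). In WT cells Il19 was at 0 and 0.496 CPM, and its fitted change turned to 2.31 with that difference subtracted, without passing. The neutrophil chemokine genes Cxcl1 and Cxcl5 were not called. Cxcl1 was at 5896, 6225 and 5762 against 8522, 6851 and 10179 CPM and missed the threshold (-0.51 ± 0.15, adjusted p = 0.0514), and Cxcl5 was at 1915, 1739.9 and 1499 against 1921, 1259 and 1238 CPM (0.22 ± 0.26, adjusted p = 0.672).

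Regulators of the response also fell. Zc3h12a, encoding the RNase Regnase-1 that limits these transcripts, was at 89.4, 86.3 and 81.1 against 132, 104 and 115 CPM (-0.45 ± 0.09, adjusted p = 0.00971). Nfkbiz was at 322, 303 and 287 against 375, 372 and 411 CPM (-0.35 ± 0.09, adjusted p = 0.0356). Steap4, a metalloreductase gene induced by IL-17, was called too, at 329, 278 and 296 against 437, 421 and 497 CPM (-0.58 ± 0.10, adjusted p = 0.00409). In the receptor and adaptor list, 1 of 12 fell and 0 rose (1 and 0 in DESeq2, 1 and 4 at an unadjusted p under 0.05). The gene that fell was Traf3ip2, at 12.4, 13.4 and 11.4 against 15.7, 14.8 and 19.4 CPM (-0.41 ± 0.11, adjusted p = 0.0392). Il17ra was at 85.6, 86.1 and 77.5 against 78.5, 63.1 and 91.6 CPM (0.10 ± 0.12, adjusted p = 0.679), with overlapping groups. Il17rc was at 17.7, 19.4 and 19.3 against 17.2, 16 and 14.5 CPM (0.23 ± 0.09, adjusted p = 0.143). Nfkbiz lost the call without any 1 of the TNF-inhibited animals or IL-17-inhibited animal 2 or 3 (adjusted p up to 0.111) and Traf3ip2 without TNF-inhibited animal 1 or 3 or any 1 of the IL-17-inhibited animals (adjusted p up to 0.125).

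**Figure D1:**
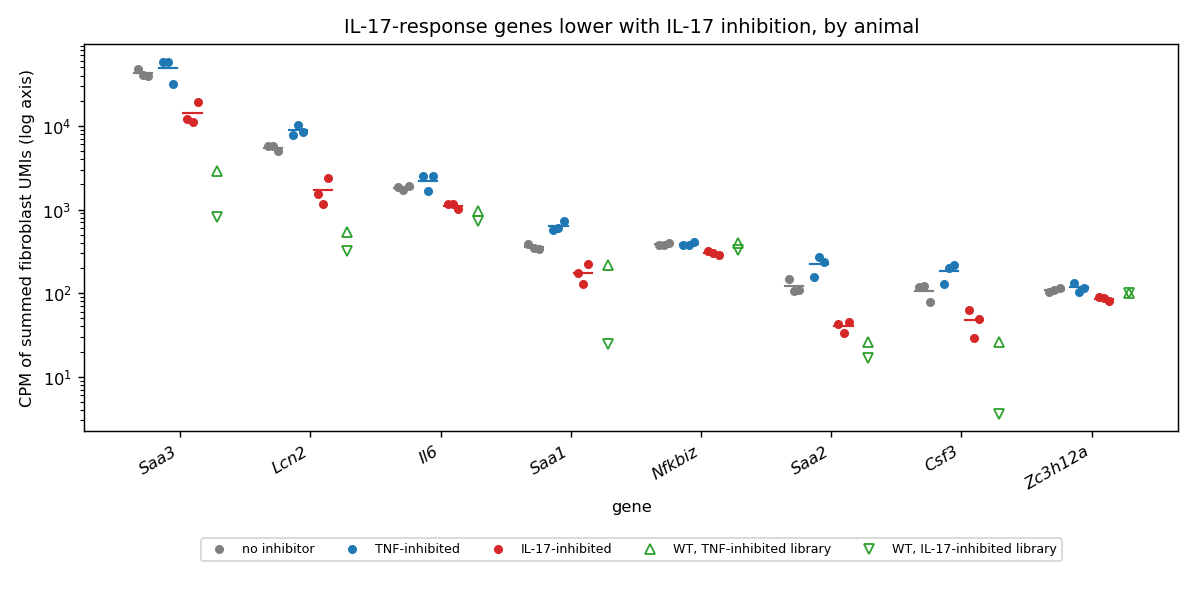
Level of 8 IL-17-response genes in CPM of the summed fibroblast UMIs (log axis) by animal. Circles are arthritic animals with no inhibitor, TNF inhibition or IL-17 inhibition (3 each, bar at the mean) and triangles the WT animal of each inhibitor library; the IL-17-inhibited circles lie below the TNF-inhibited ones for each gene, and the 2 triangles stand apart for Saa3, Saa1 and Csf3.

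Set beside arthritic animals with no inhibitor, the IL-17-inhibited group was lower for Lcn2, Saa2 and Il6, and the difference of the TNF-inhibited group did not pass the test for these genes. The 2 comparisons share the same 3 control animals, so they are given side by side only. Over all genes, 8.45% differed between IL-17 inhibition and no inhibitor and 5.55% between TNF inhibition and no inhibitor. The median log2 change of the 22 IL-17 response genes against no inhibitor was -0.27 with IL-17 inhibition and 0.29 with TNF inhibition. Over all genes tested these medians were 0.0088 and -0.0025. Lcn2 was at 5685, 5798 and 4949.9 CPM without inhibitor, and changed by -1.70 on the log2 scale with IL-17 inhibition (adjusted p = 0.00426) and by 0.70 with TNF inhibition (adjusted p = 0.131). The same 2 values were -1.58 and 0.86 for Saa2 (adjusted p = 0.00394 and 0.0536). For Il6 they were -0.70 and 0.29 (adjusted p = 0.0197 and 0.293). The type I interferon gene Ifit3 showed the other arrangement, 0.93 and 2.41 (adjusted p = 0.159 and 0.00836).

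The list of matrix-degrading enzymes and their inhibitors was mixed: of 20 genes tested, 3 fell and 3 rose. The called members included the inhibitor genes Timp3 and Timp2, so these counts are not counts of enzymes alone. Mmp3, the stromelysin that names a class, was at 6648, 5436 and 9669 CPM with IL-17 inhibition and 17764, 16429 and 13689 with TNF inhibition (-1.14 ± 0.19, adjusted p = 0.00409). Mmp12, a macrophage-type elastase gene, was at 24.1, 19.6 and 47.3 against 172, 122 and 122 CPM (-2.19 ± 0.34, adjusted p = 0.00265). For both genes the groups did not overlap, and WT cells differed by -0.53 and 0.28. Collagenase Mmp13 was at 1537, 1546 and 1365 against 1789.7, 2132 and 2598 CPM and did not pass (-0.55 ± 0.23, adjusted p = 0.166). Timp3, an inhibitor of metalloproteases, rose, at 95.7, 253 and 118 against 61.1, 43.8 and 72.3 CPM (1.40 ± 0.31, adjusted p = 0.015). Timp3 lost the call without TNF-inhibited animal 2 (adjusted p up to 0.0743).

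Other genes that fell included innate-immune and stress genes. Cxcl13, a B-cell chemokine, was at 139, 152 and 197 CPM with IL-17 inhibition and 580.3, 683 and 384 with TNF inhibition (-1.75 ± 0.28, adjusted p = 0.00353), and the WT animals were nearly equal (26.5 and 26.4). The formyl peptide receptor gene Fpr2 was at 1.82, 2.65 and 5.87 against 16.3, 25.7 and 9.07 CPM (-2.30 ± 0.37, adjusted p = 0.00356). Metallothioneins, which bind zinc and copper, fell in 3 of the 14 tested genes of their list (4 in DESeq2), and 0 rose (0 in DESeq2, 1 at an unadjusted p under 0.05). Mt1 was at 14646, 12565 and 15957 against 21655, 28174 and 28122 CPM (-0.85 ± 0.15, adjusted p = 0.00544), and Mt3 at 29.3, 12.2 and 26.2 against 53.3, 165 and 87 CPM (-2.18 ± 0.50, adjusted p = 0.0186), with a WT difference of -2.51 that turned the change to 0.39 when subtracted. Mt3 lost the call without TNF-inhibited animal 2 or IL-17-inhibited animal 2 (adjusted p up to 0.0913).

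Ctla2a, a cathepsin inhibitor gene, had the largest fall among called genes of at least 10 CPM whose groups did not overlap. It was at 30.9, 39.3 and 134 against 317, 786 and 307 CPM (-2.79 ± 0.60, adjusted p = 0.0146). U90926 and Wfdc21 were also among the 10 largest falls, at -2.35 and -1.88, and U90926 turned to 0.16 where the classes were weighted equally. In the list of glycolysis and hypoxia genes, 4 of 24 fell and 0 rose (7 and 0 in DESeq2, 10 and 0 at an unadjusted p under 0.05). These were Car9, a carbonic anhydrase, at 0.819, 1.2 and 1.31 against 9.57, 6.28 and 8.36 CPM (-2.83 ± 0.33, adjusted p = 0.000469), Ero1l (-0.95), the glucose transporter gene Slc2a1 (-0.65) and Vegfa (-0.58). Car9 was at 0 and 0.661 CPM in the WT animals of the IL-17i and TNFi libraries, and its fitted change turned to 4.02 with that difference subtracted, without passing. Spp1, which encodes osteopontin, was at 552, 451 and 392 against 712, 1072 and 865 CPM (-0.93 ± 0.18, adjusted p = 0.00813). Ctla2a lost the call without TNF-inhibited animal 2 or IL-17-inhibited animal 2 (adjusted p up to 0.0704), U90926 without TNF-inhibited animal 3 or any 1 of the IL-17-inhibited animals (adjusted p up to 0.179), Wfdc21 without TNF-inhibited animal 2 or IL-17-inhibited animal 1 or 2 (adjusted p up to 0.108), Ero1l without IL-17-inhibited animal 2 (adjusted p up to 0.0767), Slc2a1 without TNF-inhibited animal 1 or 3 or IL-17-inhibited animal 2 or 3 (adjusted p up to 0.0946) and Vegfa without TNF-inhibited animal 1 or 3 or IL-17-inhibited animal 2 or 3 (adjusted p up to 0.0921).

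Interferon-stimulated genes leaned lower, with few calls. Of 22 tested type I genes, 3 fell and 0 rose (4 and 0 in DESeq2, 9 and 0 at an unadjusted p under 0.05), 21 were below 0 and the median was -0.46, with -0.21 in WT cells. Rsad2, encoding the antiviral protein viperin, was at 9.32, 15.9 and 7.26 against 17.4, 50.3 and 46.2 CPM (-1.80 ± 0.34, adjusted p = 0.00764). Ifit3 was at 7.28, 24.1 and 17.3 against 34.1, 43.4 and 61.4 CPM (-1.49 ± 0.37, adjusted p = 0.0282). Its promoter holds 2 matches of the interferon element, and the Rsad2 promoter holds it too. The element was also in 7 of the 16 list members that were tested, not called and had an entry (Ifit1, Ifit3b, Isg15, Oas1a, Oas3, Stat2 and Bst2), against 2.98% of all promoters:
Ifit3, chr19:34583348-34583441, plus strand: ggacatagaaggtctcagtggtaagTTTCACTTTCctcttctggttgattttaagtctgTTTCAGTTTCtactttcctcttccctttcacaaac
Ifit3 lost the call without TNF-inhibited animal 2 or 3 or IL-17-inhibited animal 1 or 3 (adjusted p up to 0.0705).

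Usp18, a negative regulator of the pathway, was the other called gene (-1.08). WT cells were at 4.02 and 11.1 CPM for Ifit3. Among 20 interferon-gamma genes 0 were called by edgeR or by DESeq2 and 1 had an unadjusted p under 0.05, and the ligand genes Cxcl9, at 704, 1702 and 1330.0 against 591, 810.1 and 2152 CPM, and Cxcl10, at 492, 1114 and 732 against 746, 836 and 2271, overlapped widely between the groups. TNF-inhibited animal 3, the female of that group, was the highest for Cxcl9 and Cxcl10. Usp18 lost the call without TNF-inhibited animal 2 (adjusted p up to 0.11).

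Contractile and TGF-beta-linked genes moved to the other side: 9 of 21 tested rose and 0 fell (10 and 0 in DESeq2, 11 and 1 at an unadjusted p under 0.05), with a median of 0.47 (0.08 in WT cells). Acta2 (chr19:34241090-34255590), encoding smooth muscle actin, was at 39.3, 44.4 and 48.1 CPM in IL-17-inhibited and 8.46, 8.06 and 9.61 in TNF-inhibited animals. The groups were far apart, with means of 44 ± 4.41 and 8.71 ± 0.803 (SD, n = 3) and a log2 fold change of 2.35 ± 0.20, adjusted p = 0.000201. Within females the change was 2.24 and within males 2.25, each from 2 against 1 animals. WT cells differed the other way (8.64 and 12.6 CPM), and with that subtracted the change was 2.89 without passing (adjusted p = 0.229).

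Tagln, which encodes the actin-binding protein transgelin (chr9:45929619-45936058), was at 20.3, 17.7 and 15.9 against 3.61, 2.89 and 3.47 CPM (2.44 ± 0.30, adjusted p = 0.000702). Ltbp2, a latent TGF-beta-binding protein gene, was at 115, 123 and 94.4 against 41.7, 40.2 and 30.5 CPM (1.56 ± 0.18, adjusted p = 0.000469), and WT cells differed by 0.83. Calponin 2, Cnn2, was at 16.9, 24.4 and 17.1 against 11.4, 6.4 and 8.36 CPM (1.16 ± 0.19, adjusted p = 0.00372). Myl9, Tgfbi, Tpm1, Tgfb1 and Tgfb3 were the other 5 called members. Against no inhibitor, Acta2 was -1.55 with TNF inhibition (adjusted p = 0.00444) and 0.80 with IL-17 inhibition (adjusted p = 0.0227), from the same 3 control animals.

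The CArG box, through which serum response factor drives many contractile genes, was found in 2 of the 7 called members with a promoter entry and in 1 of the 7 not called (Fhl2), against 1.47% of all promoters. Over all genes with an entry it was in 3.43% of those called higher, 2.19% of those called lower and 1.38% of those not called. It is shown in capitals in the 2 called members:
Myl9, chr2:156775278-156775337, plus strand: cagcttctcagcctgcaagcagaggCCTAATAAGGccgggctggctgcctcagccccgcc
Cnn2, chr10:79988519-79988578, plus strand: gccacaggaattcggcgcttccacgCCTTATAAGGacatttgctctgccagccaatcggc

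Contractile genes are also expressed by mural cells, which surround vessels, and markers of these cells moved too. The summed level of Rgs5, Myh11, Des and Notch3 was 46.7 to 95.6 CPM in IL-17-inhibited and 29.2 to 31.2 in TNF-inhibited animals, and 46.4 and 113 in the WT animals of these libraries. Of the 4, Notch3 (1.77 ± 0.19, adjusted p = 0.000311) and Des (1.46 ± 0.25, adjusted p = 0.00484) rose. Rgs5 was at 47.5, 27.7 and 21.1 against 17.7, 17.4 and 14.8 CPM and was not called. Myh11, which defines smooth muscle, was at 0.455, 0.555 and 0.723 against 0.381, 0.677 and 0.889 CPM, below 1 in all 6 animals. The part of mural cells in the rise of Acta2 and Tagln was not tested. In summed cells, more cells of a type and more RNA per cell cannot be told apart.

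Cd74, the invariant chain of MHC class II, and H2-Aa and H2-Eb1, chains of the class II molecules that present antigen to T cells, rose as well. Cd74 was at 19.7, 82.8 and 56 CPM with IL-17 inhibition and 5.86, 3.48 and 7.83 with TNF inhibition (3.28 ± 0.51, adjusted p = 0.00269). H2-Aa was at 6.14, 26.6 and 18.2 against 2.88, 2.06 and 3.56 CPM (2.65 ± 0.47, adjusted p = 0.00555) and H2-Eb1 at 3.5, 18 and 12.6 against 1.91, 2.15 and 2.58 (2.41 ± 0.48, adjusted p = 0.00953). Other class II genes, named after their values were seen, did not pass. H2-Ab1 was at 10.3, 36 and 27.1 against 11.9, 8.03 and 12.7 CPM, with overlapping groups (1.2 ± 0.36, adjusted p = 0.0643), and turned to -0.30 with the WT difference subtracted. H2-DMa (0.83, adjusted p = 0.187) and H2-DMb1 (0.63, adjusted p = 0.08) were not called. The 2 female IL-17-inhibited animals were the highest for Cd74, H2-Aa and H2-Eb1, and the male one lay above the TNF-inhibited range. WT cells differed in the same direction, with Cd74 at 2.61 and 0.661 CPM and H2-Aa at 1.81 and 0. The WT value of 0 for H2-Aa leaves no usable subtraction, and the fitted one was -5.64.

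Leukocyte markers were low in these cells. The summed level of the 11 markers was 31.1 to 93.9 CPM with IL-17 inhibition and 21.3 to 36.3 with TNF inhibition, and Cd74 was 1 of the 11. Ptprc, which encodes CD45, was at 0.0455, 0 and 0.111 against 0.0347, 0.0615 and 0.178 CPM, Cd3e was at 0 in all 6 animals, and the macrophage gene Lyz2 was at 7.91, 6.07 and 9.15 against 14.6, 25.1 and 6.76. MHC class I genes moved little: 2 of 16 rose and 0 fell (3 and 0 in DESeq2, 5 and 0 at an unadjusted p under 0.05), with H2-K1 at 2016, 2615 and 2455 against 1562, 1776 and 1595 CPM (0.52 ± 0.14, adjusted p = 0.0359). H2-K1 lost the call without any 1 of the TNF-inhibited animals or IL-17-inhibited animal 2 or 3 (adjusted p up to 0.144).

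**Figure D2:**
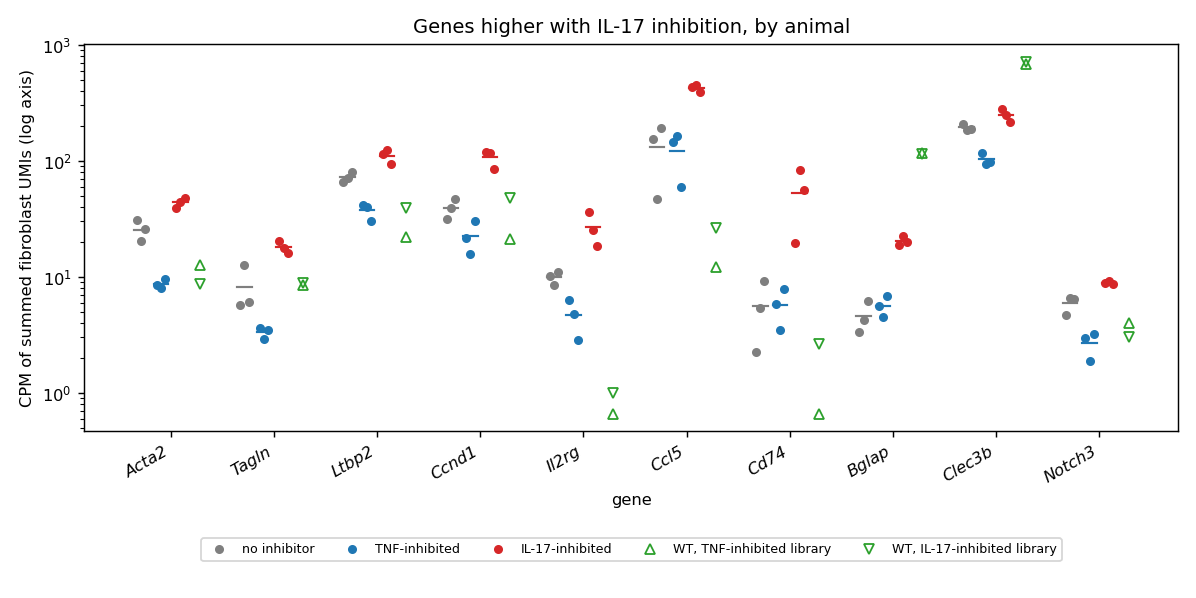
Level of 10 genes that rose with IL-17 inhibition, in CPM of the summed fibroblast UMIs (log axis) by animal, with circles for arthritic animals (3 per group, bar at the mean) and triangles for the WT animal of each inhibitor library. All IL-17-inhibited circles lie above all TNF-inhibited ones for these genes, for example 39.3, 44.4 and 48.1 against 8.46, 8.06 and 9.61 CPM for Acta2.

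The NF-kB-target list of TNF signalling split: 7 of 23 rose and 3 fell, with a median of 0.07. Ccl5, a T-cell chemokine, was at 432, 450.0 and 394 against 144, 164 and 59.3 CPM (1.79 ± 0.49, adjusted p = 0.0423), with no overlap. Traf1, a signalling adaptor of TNF receptors, was at 29, 22.2 and 23.8 against 13.3, 11.5 and 10.3 CPM (1.08 ± 0.16, adjusted p = 0.00241). Tnip3, an NF-kB inhibitor gene, was at 7.6, 9.64 and 7.71 against 3.16, 3.91 and 1.69 CPM (1.44 ± 0.27, adjusted p = 0.00722). The membrane chemokine gene Cx3cl1 was at 50.7, 55.5 and 46.7 against 29, 19.2 and 23.7 CPM (1.09 ± 0.16, adjusted p = 0.00229). Tnfaip3, the deubiquitinase A20, was among those that fell, 263, 293 and 232 against 399, 291 and 414 CPM (-0.49 ± 0.13, adjusted p = 0.0347), with overlapping groups. Nfkbia was at 1318, 1399 and 1422 against 1574, 1342 and 1552 CPM (-0.11 ± 0.09, adjusted p = 0.506). Ccl5 lost the call without any 1 of the 6 animals (adjusted p up to 0.108) and Tnfaip3 without TNF-inhibited animal 1 or 3 or IL-17-inhibited animal 1 or 3 (adjusted p up to 0.113).

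Further genes that rose were Il2rg, the common gamma chain of cytokine receptors, at 36.5, 25.3 and 18.5 against 6.35, 4.74 and 2.85 CPM (2.45 ± 0.26, adjusted p = 0.000282), and the cyclin gene Ccnd1 at 119, 118 and 85.4 against 21.6, 15.6 and 30.5 (2.28 ± 0.28, adjusted p = 0.000702). Scg3, encoding a granin of secretory vesicles, was at 18.4, 11.5 and 9.93 against 2.84, 2 and 2.4 CPM (2.45 ± 0.24, adjusted p = 0.000206), and the VEGF receptor gene Flt1 at 12, 15.1 and 6.23 against 4.09, 1.66 and 1.96 (2.07 ± 0.34, adjusted p = 0.00353). The histone gene Hist1h2ap was at 65.9, 15.5 and 7.59 against 2.6, 4.12 and 3.56 CPM (3.10 ± 0.63, adjusted p = 0.0106), with male animal 1 the highest. Il34, a ligand of the Csf1 receptor, was at 23.9, 21.1 and 13.5 against 7.73, 4.86 and 3.56 CPM (1.80 ± 0.28, adjusted p = 0.00265), and Tnfrsf11b, the decoy receptor osteoprotegerin, at 23.7, 15.6 and 20.3 against 9.71, 8.92 and 12.1 (0.97 ± 0.22, adjusted p = 0.018). Its ligand gene Tnfsf11 (RANKL) was at 109, 58.4 and 70.6 against 139.7, 141 and 100.2 CPM and did not pass (-0.69 ± 0.22, adjusted p = 0.0807). Tnfrsf11b lost the call without TNF-inhibited animal 2 or IL-17-inhibited animal 1 (adjusted p up to 0.0885).

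Of 30 fibrous matrix genes, 5 rose and 5 fell (8 and 6 in DESeq2, 15 and 6 at an unadjusted p under 0.05). Of the 30, 21 were above 0, and the median was 0.39. Of the genes of Pi16+ and universal fibroblasts, 7 of 17 rose, 1 fell and 9 did not pass. Pi16+ cells were themselves a larger share with IL-17 inhibition, 2.49% ± 1.27 against 0.216% ± 0.15 of the fibroblasts (SD, n = 3), and the part of that share in this list was not tested. Clec3b, encoding tetranectin, was at 281, 246 and 214 against 118, 94.4 and 97.8 CPM (1.26 ± 0.11, adjusted p = 0.000201), and Col6a2 at 822, 632 and 713 against 493, 479 and 266 (0.81 ± 0.19, adjusted p = 0.0214). Pi16 itself was at 199, 346 and 346 against 459, 255 and 325 CPM (-0.22 ± 0.25, adjusted p = 0.668). Cd200 was at 51.8, 61.3 and 45.2 against 41.6, 41.7 and 95.6 CPM (-0.15 ± 0.29, adjusted p = 0.818) and Dkk3 at 66.4, 72.4 and 65.9 against 66.8, 62 and 45.5 (0.23 ± 0.13, adjusted p = 0.326), so neither of these 2 genes passed. Of 11 Notch pathway genes 2 rose, the receptor Notch3 at 8.82, 9.18 and 8.65 against 2.98, 1.88 and 3.2 CPM and the target Heyl at 1.46, 0.986 and 1.81 against 0.312, 0.123 and 0.178 (2.74 ± 0.39, adjusted p = 0.00182). Of 21 Wnt pathway genes 1 rose, the ligand enhancer Rspo2 at 19.2, 18.4 and 11.5 against 7.59, 6.09 and 3.82 CPM (1.43 ± 0.29, adjusted p = 0.00971). That count is near the 4.54% of all genes tested that rose. Col6a2 lost the call without IL-17-inhibited animal 1 (adjusted p up to 0.0797).

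Smaller lists held calls in both directions. Of 9 chemokine genes 3 rose, among them Cxcl16 at 142, 172 and 187 against 108, 77.8 and 101 CPM (0.81 ± 0.13, adjusted p = 0.00352), and 2 fell. Over all fibroblasts, 4 of 13 lining identity genes rose and 1 fell (6 and 1 in DESeq2, 8 and 2 at an unadjusted p under 0.05). Of the 13, 10 were above 0, and the median was 0.97. Clic5, a chloride channel gene of the lining, was at 85.9, 73.5 and 33.4 against 8.46, 16.8 and 25.3 CPM (1.97 ± 0.42, adjusted p = 0.014). The integrin gene Itga6 was at 18.3, 15.9 and 8.15 against 3.88, 6.46 and 7.47 (1.28 ± 0.27, adjusted p = 0.0139). The complement regulator gene Cd55, which also marks the lining, was at 147, 109 and 77 against 54.8, 42.1 and 55.3 CPM (1.13 ± 0.22, adjusted p = 0.00921). Of 20 complement genes 2 rose and 3 fell, and of 14 lipid genes 1 rose and 2 fell, with the fatty acid transporter gene Cd36 at 0.136, 0.431 and 0.334 against 1.04, 2.25 and 0.623 CPM (-2.13 ± 0.60, adjusted p = 0.0466), turned to 0.85 with the WT difference subtracted. Of 19 cell cycle genes 2 rose and 1 fell (4 and 1 in DESeq2, 13 and 1 at an unadjusted p under 0.05). Of the 19, 17 were above 0, and the median was 1.32. The thymidine kinase gene Tk1 was at 9.32, 3.36 and 2.03 against 1.14, 1.38 and 0.445 CPM (2.14 ± 0.50, adjusted p = 0.0217). The summed level of the 19 overlapped between the groups, 299.8, 155 and 134 against 129, 148 and 187 CPM. The median change of the 19 was 0.09 within females and 2.71 within males, where IL-17-inhibited animal 1 was the only IL-17-inhibited male. Clic5 lost the call without TNF-inhibited animal 2 (adjusted p up to 0.0587), Itga6 without IL-17-inhibited animal 2 (adjusted p up to 0.0565), Cd36 without TNF-inhibited animal 1 or 2 or any 1 of the IL-17-inhibited animals (adjusted p up to 0.27) and Tk1 without TNF-inhibited animal 1 or 2 or IL-17-inhibited animal 1 (adjusted p up to 0.0577).

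**Figure D3:**
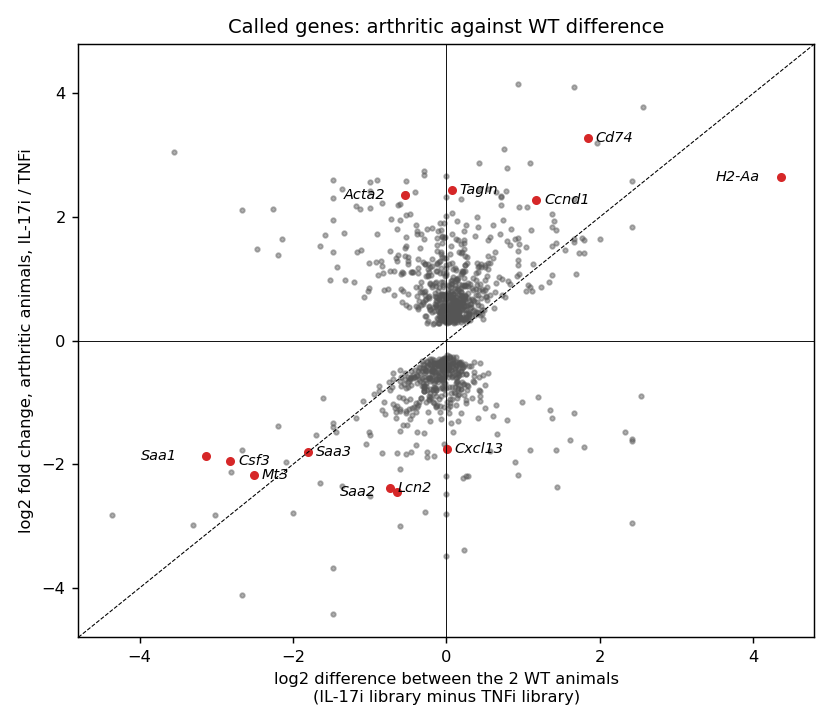
Each point is 1 of the 1090 called genes, with the log2 difference between the WT animals of the 2 libraries on the horizontal axis and the log2 fold change of the arthritic animals on the vertical axis; the dashed line marks equal values and 2 genes lie outside the axes. Saa3, Saa1, Csf3 and Mt3 lie near the line or left of it, while Lcn2, Saa2, Cxcl13, Acta2 and Tagln lie far from it.

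The classes were then compared with one another. Cells per animal ranged from 57 to 229 for lining, 338 to 986 for Mmp3+, 320 to 808 for Il6+ and 125 to 305 for Cd200+ fibroblasts. Pi16+ fibroblasts were 6, 1 and 2 cells in the TNF-inhibited animals and were not fitted. In separate fits, 656 of 9970 genes (6.58%) differed in lining, 1331 of 13184 (10.1%) in Mmp3+, 81 of 11597 (0.698%) in Il6+ and 145 of 9140 (1.59%) in Cd200+ fibroblasts. Higher and lower genes made up 3.37% and 3.21% in lining, 5.26% and 4.83% in Mmp3+, 0.466% and 0.233% in Il6+ and 0.908% and 0.678% in Cd200+ fibroblasts. Depth differed between the classes, with 1067473 to 5283104 UMIs per animal in lining and 6111240 to 22419015 in Mmp3+ fibroblasts. It was 3846390 to 11122278 in Il6+ and 1329135 to 3940598 in Cd200+ fibroblasts. Mmp3+ fibroblasts had the greatest depth and the most calls, while Il6+ fibroblasts had fewer calls than lining fibroblasts at a greater depth. The part of depth in these counts was not tested. Leaving out 1 animal gave 197 to 1195 genes in lining (197 without TNF-inhibited animal 2, 1195 without TNF-inhibited animal 3), 658 to 1410 in Mmp3+ (lowest without TNF-inhibited animal 2), 10 to 93 in Il6+ and 27 to 161 in Cd200+ fibroblasts (both lowest without IL-17-inhibited animal 2). The classes come from the same 6 animals and are not independent of each other: 301 genes were called in both lining and Mmp3+ fibroblasts, 45.9% and 22.6% of the 2 sets, all in the same direction.

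A test of the class difference itself, with the animal as a block, found 251 of 11901 genes (2.11%) whose IL-17i minus TNFi change in lining fibroblasts differed from the mean of the other 3 classes, 129 of them higher and 122 lower. In lining cells the median stress score was 0.444, 0.471 and 0.471 with IL-17 inhibition and 0.685, 0.860 and 0.643 with TNF inhibition, without overlap, while in Mmp3+, Il6+ and Cd200+ cells the groups overlapped, and the part of this score in the lining genes was not tested. The test found 7 (0.0588%) for Mmp3+, 33 (0.277%) for Il6+ and 37 (0.311%) for Cd200+ fibroblasts. A limma-voom fit with the animal as a random effect gave 186, 2, 3 and 5. Leaving out 1 animal gave 40 to 644 genes for lining, the lowest without TNF-inhibited animal 2 and the highest without TNF-inhibited animal 3, and with class by sex in the fit there were 137.

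Lcn2 fell in all 4 classes, and by different amounts. In lining fibroblasts it was at 1539, 965 and 2633 CPM with IL-17 inhibition and 13849, 19324 and 15728 with TNF inhibition (-3.27 ± 0.32, adjusted p = 0.000369). In Il6+ fibroblasts it was at 1738, 1681 and 2407 against 3963, 3927 and 5831 CPM (-1.23 ± 0.17, adjusted p = 0.0125). With IL-17 inhibition the values of these 2 classes overlapped, while with TNF inhibition all lining values were higher. The change in Mmp3+ fibroblasts was -2.37 ± 0.25 and in Cd200+ fibroblasts, where the level was lowest, -1.95 ± 0.25. Against the mean of the other classes the change differed by -1.50 ± 0.20, adjusted p = 0.000672 in lining and by 1.33 ± 0.20, adjusted p = 0.00883 in Il6+ fibroblasts. The latter had an adjusted p of 0.0804 in limma-voom, and its call was lost without TNF-inhibited animal 1 or 2 (adjusted p up to 0.0931). In Il6+ fibroblasts alone the call was lost without IL-17-inhibited animal 2 (adjusted p up to 0.0626).

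For Saa3 and Il6, too, the change was most negative in lining fibroblasts, while the smallest lay in Cd200+ fibroblasts for Saa3 and in Il6+ fibroblasts for Il6. Saa3 in lining fibroblasts was at 9341, 8690.4 and 25229 against 85896, 96708 and 47946 CPM (-2.43 ± 0.40, adjusted p = 0.00407). Its change was -1.53 ± 0.21 in Mmp3+, -0.82 ± 0.23 in Il6+ and -0.46 ± 0.24 in Cd200+ fibroblasts, the last 2 without passing (adjusted p = 0.17 and 0.42). The lining change differed from the mean of the others by -1.57 ± 0.27, adjusted p = 0.00508. For Il6, the change was -2.04 ± 0.25 in lining, -1.36 ± 0.15 in Mmp3+, -1.33 ± 0.22 in Cd200+ and -0.47 ± 0.17 in Il6+ fibroblasts, the class named for it, where the level was 2890.3, 2555 and 1847 against 3495, 2778 and 3868 CPM and did not pass (adjusted p = 0.28). The difference from the other classes was -0.97 ± 0.20, adjusted p = 0.0162 for lining and 1.06 ± 0.20, adjusted p = 0.0225 for Il6+ fibroblasts. The lining difference of Saa3 was lost without TNF-inhibited animal 2 (adjusted p up to 0.0662) and that of Il6 without TNF-inhibited animal 1 or 2 or IL-17-inhibited animal 1 or 2 (adjusted p up to 0.14) or with sex by class in the fit (adjusted p = 0.0671). In Il6+ fibroblasts the difference of Il6 was lost without TNF-inhibited animal 1 or 2 or IL-17-inhibited animal 1 or 2 (adjusted p up to 0.172) and in limma-voom (adjusted p = 0.117), and in Cd200+ fibroblasts its call was lost without IL-17-inhibited animal 2 or 3 (adjusted p up to 0.0605). Since Il6 names the class, the choice of cells by the annotation and the level of Il6 are not separate there.

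Ptx3, encoding the soluble pattern-recognition protein pentraxin 3, fell in 3 classes. It was at 612, 583 and 532 against 2773, 2018 and 2181 CPM in Cd200+ fibroblasts (-2.0 ± 0.16, adjusted p = 8.09e-05) and changed by -2.09 ± 0.31 in lining and -1.52 ± 0.18 in Mmp3+ fibroblasts. In Il6+ fibroblasts it was at 2474, 2481 and 2389 against 3634, 2422 and 3459 CPM (-0.37 ± 0.15, adjusted p = 0.348), and that change differed from the others by 1.48 ± 0.20, adjusted p = 0.00272. Of the IL-17 response genes, 9 of 20 fell in lining, 12 of 22 in Mmp3+, 3 of 18 in Cd200+ and 1 of 22 in Il6+ fibroblasts, and 2 of 22 rose in Mmp3+ fibroblasts with 0 in the others. Over all genes tested, 3.21%, 4.83%, 0.678% and 0.233% fell in these classes in the same order, and 5.26% rose in Mmp3+ fibroblasts. The counts of the list cannot be compared between the classes without these shares.

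Nos2, the inducible nitric oxide synthase, differed between the classes. In lining fibroblasts it was at 128, 158 and 269 against 613, 560.3 and 1004 CPM (-1.99 ± 0.32, adjusted p = 0.00407), with no overlap. In Cd200+ fibroblasts it was at 265, 360.3 and 218 against 116, 97.1 and 184 CPM, higher in each IL-17-inhibited animal, without passing in that class alone (1.10 ± 0.31, adjusted p = 0.105). The difference from the other classes passed in both, with and without each animal in turn, by -2.01 ± 0.23, adjusted p = 0.000123 for lining and 2.19 ± 0.24, adjusted p = 0.00013 for Cd200+ fibroblasts. Over all fibroblasts the gene was not called (-0.88 ± 0.31, adjusted p = 0.107).

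Genes with a higher change in lining fibroblasts than elsewhere included Il1rl1, the receptor of IL-33, at 115, 36.4 and 41.1 against 9.26, 5.45 and 20.6 CPM (2.81 ± 0.51, adjusted p = 0.007). Its change was -0.87 ± 0.40 in Cd200+ fibroblasts, and the lining difference was 2.96 ± 0.43, adjusted p = 0.00103. Il11, a cytokine of the IL-6 family, was at 14, 13.9 and 10.4 against 2.78, 2.27 and 4.58 CPM in lining (2.18 ± 0.31, adjusted p = 0.00249) and -0.28 ± 0.15 in Mmp3+ fibroblasts, a difference of 2.45 ± 0.58, adjusted p = 0.0314. Htra4, a serine protease gene that marks the lining layer, was at 524, 513 and 467 against 73.1, 80.8 and 260.1 CPM (1.91 ± 0.58, adjusted p = 0.071), with TNF-inhibited animal 3 the highest of its group, and the difference from the other classes was 2.30 ± 0.35, adjusted p = 0.00129. Htra4 did not pass in lining fibroblasts alone. The lining call of Il1rl1 was lost without TNF-inhibited animal 2 (adjusted p up to 0.0658), and the class difference of Il11 without TNF-inhibited animal 1 or 2 or any 1 of the IL-17-inhibited animals (adjusted p up to 0.383), in limma-voom (adjusted p = 0.15) and with sex by class in the fit (adjusted p = 0.0805). Among lining identity genes, 6 of 13 rose in lining fibroblasts and 0 fell, against 3.37% and 3.21% of all genes tested there.

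Bglap2, an osteocalcin gene, was at 58.3, 56.7 and 65.3 against 5.56, 5.9 and 8.02 CPM in lining (3.27 ± 0.29, adjusted p = 0.000333) and at 77.8, 118 and 101 against 88.4, 63 and 54.7 in Cd200+ fibroblasts (0.54 ± 0.25, adjusted p = 0.365). The lining change differed from the others by 2.32 ± 0.30, adjusted p = 0.000592. Its neighbour Bglap has a near-identical sequence, so UMIs could be split between them. Osteocalcin is the defining product of osteoblasts, and annotated osteoblasts, which are no members, numbered 140, 137 and 117 in IL-17-inhibited against 68, 89 and 51 in TNF-inhibited animals. These animals had 1474, 2223 and 2302 against 1837, 1947 and 915 annotated cells, so the osteoblast shares of the groups overlapped. WT cells were nearly equal for Bglap2 (173 and 150.2 CPM), and the part of osteoblast RNA was not tested.

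Genes with a lower change in lining fibroblasts than elsewhere included the TNF-receptor family gene Tnfrsf9, at 10.9, 5.7 and 5.19 against 33.3, 29.7 and 44.7 CPM (-2.22 ± 0.35, adjusted p = 0.0038), and the flavin monooxygenase gene Fmo1, at 2.23, 2.14 and 2.42 against 31, 24.1 and 5.73 CPM (-3.31 ± 0.42, adjusted p = 0.00152). Fmo1 changed by -1.11 ± 0.24 in Mmp3+, -0.73 ± 0.14 in Cd200+ and -0.30 ± 0.18 in Il6+ fibroblasts. In Cd200+ fibroblasts the scaffold gene Gas7 was at 44.8, 48.3 and 36.5 against 11.6, 21.5 and 12.4 CPM (1.51 ± 0.23, adjusted p = 0.00647) and changed by 0.30 ± 0.12 in Mmp3+ fibroblasts, a difference from the other classes of 1.55 ± 0.22, adjusted p = 0.00474. The interferon-inducible gene Ifi203 was at 99.6, 122 and 96.1 against 299, 206 and 445 CPM (-1.56 ± 0.26, adjusted p = 0.0112) and changed by -0.14 ± 0.25 in Il6+ fibroblasts. The lining difference of Fmo1 was -2.56 ± 0.43, adjusted p = 0.00352, lost without TNF-inhibited animal 2 (adjusted p up to 0.0524) and in limma-voom (adjusted p = 0.0834). The Cd200+ difference of Gas7 was lost without TNF-inhibited animal 1 (adjusted p up to 0.067) and in limma-voom (adjusted p = 0.0587), and that of Ifi203 (-1.37 ± 0.22, adjusted p = 0.00755) without TNF-inhibited animal 1 or IL-17-inhibited animal 2 or 3 (adjusted p up to 0.071) and in limma-voom (adjusted p = 0.0587). Dio2, which activates thyroid hormone, was at 90.6, 81.3 and 69.2 against 203, 191 and 267 CPM in Cd200+ (-1.45 ± 0.17, adjusted p = 0.00173) and at 150.3, 119.8 and 107 against 90.8, 92 and 109.6 in Il6+ fibroblasts (0.36 ± 0.13, adjusted p = 0.293). Its difference from the other classes was 1.32 ± 0.24, adjusted p = 0.0222 in Il6+ fibroblasts, lost without TNF-inhibited animal 1 or IL-17-inhibited animal 1 or 2 (adjusted p up to 0.172) and in limma-voom (adjusted p = 0.0852).

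**Figure D4:**
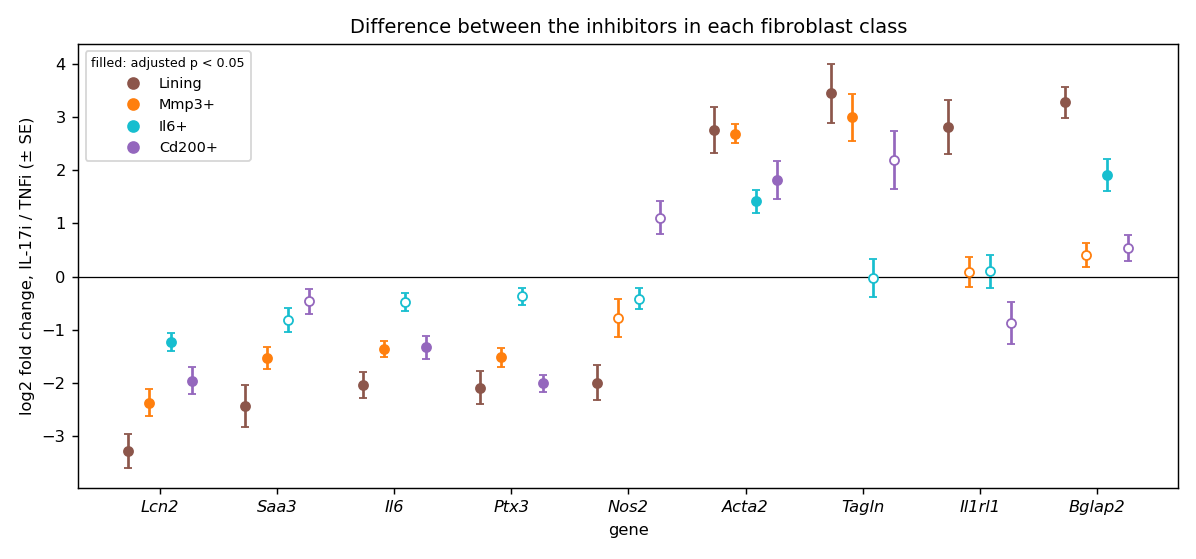
Log2 fold change between IL-17-inhibited and TNF-inhibited animals (vertical axis, ± SE, from 3 against 3 animals) for 9 genes in 4 fibroblast classes, filled where the adjusted p is under 0.05. Lcn2 runs from -3.27 in lining to -1.23 in Il6+ fibroblasts, and Nos2 from -1.99 in lining to 1.10 in Cd200+ fibroblasts.

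Of 8665 genes tested in all 4 classes, 18 were called in each, all with 1 direction throughout. They are named here after their values were seen. Lcn2, the serpin gene Serpina3m and the TGF-beta co-receptor gene Tgfbr3 fell, as did Rpl9-ps6, Rps27rt and Wdr89. Acta2, Bglap, Angptl2, Crip1, Dpysl2, Enpp2, Fam167a, Gm10076, Gstp1, Polr2l, Rpl35 and Sdc2 rose. Acta2 changed by 2.76 in lining, 2.68 in Mmp3+, 1.41 in Il6+ and 1.81 in Cd200+ fibroblasts. Its call in Il6+ fibroblasts was lost without TNF-inhibited animal 2 or IL-17-inhibited animal 2 or 3 (adjusted p up to 0.0906) and that in Cd200+ fibroblasts without TNF-inhibited animal 1 or 3 or any 1 of the IL-17-inhibited animals (adjusted p up to 0.105). Enpp2, encoding the lysophospholipase autotaxin, changed by 0.92, 1.09, 1.12 and 1.28 in the same order. The Cd200+ call of Bglap was lost without TNF-inhibited animal 2 or 3 or any 1 of the IL-17-inhibited animals (adjusted p up to 0.171). Its lining call was lost without TNF-inhibited animal 2 (adjusted p up to 0.0684). Several of the 18 differed as much between the WT animals. Gstp1 rose by 1.42 over all fibroblasts with a WT difference of 1.73, Gm10076 by 1.47 with 1.55, and Polr2l by 0.96 with 0.81. The ribosomal gene Rps27rt changed by -0.99 with a WT difference of -0.81. Tagln, by contrast with Acta2, was at 3.78, 5.51 and 4.07 against 4.69, 4.24 and 4.98 CPM in Il6+ fibroblasts and did not pass there (-0.03 ± 0.35, adjusted p = 0.991), against 3.44 ± 0.55 in lining and 3.00 ± 0.44 in Mmp3+ fibroblasts.

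Class shares, 1 value per animal, were set against each other with an exact permutation test (two-sided). With 20 splits of 3 against 3 this exact test cannot go below p = 0.1. Mmp3+ fibroblasts made up 41.6%, 31.9% and 41.1% of the fibroblasts of the IL-17-inhibited animals and 55.1%, 55.8% and 40.1% of those of the TNF-inhibited ones (exact p = 0.3, adjusted p = 0.5). The 2 TNF-inhibited males were the highest, and the difference was -3.63 percentage points within females and -13.9 within males. Pi16+ fibroblasts held 2.92%, 3.49% and 1.07% against 0.354%, 0.0566% and 0.238%, without overlap (exact p = 0.1, adjusted p = 0.5). Il6+ fibroblasts held 27.9%, 42.0% and 36.3% against 29.3%, 23.8% and 38.0% (exact p = 0.5). Cd200+ fibroblasts held 13.2%, 15.9% and 14.2% against 8.31%, 7.41% and 14.8% (exact p = 0.3), and lining fibroblasts 14.4%, 6.66% and 7.27% against 6.9%, 13.0% and 6.77% (exact p = 0.7). In the WT animals of the IL-17i and TNFi libraries, Pi16+ fibroblasts held 41.9% and 42.9%.

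**Figure D5:**
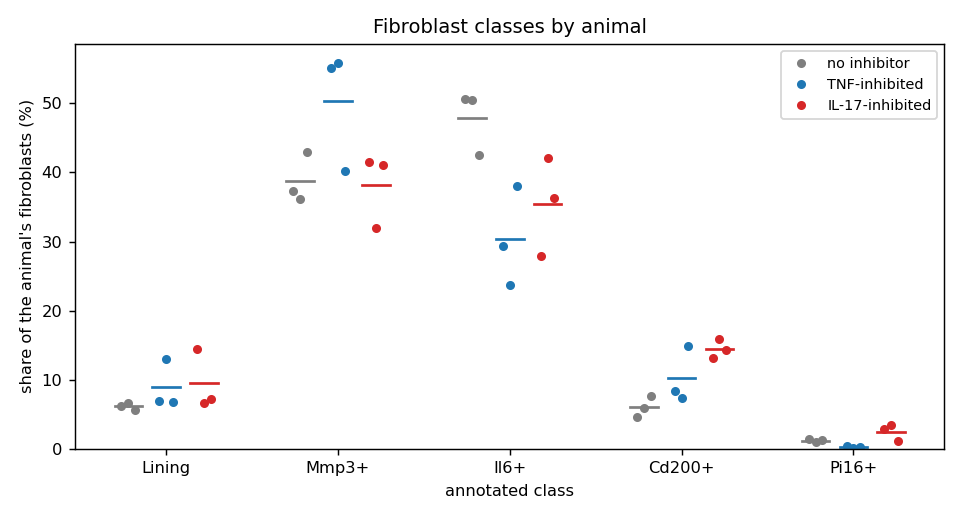
Share of each annotated class among the fibroblasts of each arthritic animal (percent, 3 animals per group, bar at the mean) with no inhibitor, TNF inhibition or IL-17 inhibition. The Pi16+ values of the 2 inhibitor groups do not overlap (1.07% to 3.49% against 0.0566% to 0.354%), and those of the other 4 classes do.

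Class composition and sex were also entered into the comparison over all fibroblasts. With each class given the same weight in both groups (limma-voom), 622 genes were higher and 545 lower of 11901 tested. Lcn2 kept a change of -2.24 and Saa3 of -1.36 in that fit. With sex as a term over the 9 arthritic animals there were 550 higher and 394 lower genes. Within females, 256 genes were higher and 223 lower, and within males 474 and 224, from 2 against 1 animals in each case. In these fits the spread came from the pairs of animals of the same sex and treatment among the 9 arthritic animals, and each lone animal was assumed to vary like them, so these counts do not show that the change held in both sexes. A test of whether the change differed by sex called 1 of 14257 genes, with 1897 at an unadjusted p under 0.05.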

How the data were processed

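Single-cell RNA was read in 3 unsorted droplet libraries with hashtags, 1 per treatment, each pooling 4 animals. The deposited matrices hold raw UMI counts per gene and barcode, made with Cell Ranger per the file headers (version 6.0.0 there, 6.0.6 in the submitters' processing notes, with the genome build mm10). The deposited annotation gives the class, hashtag, treatment and genotype of each cell, the mitochondrial fraction and a stress score, per the file headers. Filtering of cells, doublet removal, the calling of hashtags and the making of classes are not given in the sources used here, and no doublet caller was run. The UMI total of the matrix equalled the annotation's in 10791 of 17902 cells and differed by at most 41. The FAP-sorted library was not used here.

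UMI counts were summed per animal, and per animal and class, over the annotated fibroblasts. They were tested with edgeR 4.0.16 (TMM scaling, filterByExpr, quasi-likelihood test, Benjamini-Hochberg adjustment over all genes tested, threshold 0.05) under R 4.3.3. The fit over all fibroblasts held the 12 animals of the 3 libraries, the class fits the 9 arthritic animals with at least 20 cells of the class, and the class differences the 6 inhibitor-treated animals with the animal as a block. Errors of log2 fold changes are standard errors, and levels are CPM after TMM scaling. Log2 differences of the WT animals used a prior count of 2. Shares were compared by exact permutation tests over all 20 splits, computed in Python 3.11.15 and adjusted over the 5 classes. Alternatives used DESeq2 1.42.0 and limma 3.58.1, and animals were the replicates.

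On simulated data for the comparison of all fibroblasts (14218 genes tested), the test recovered 67% of genes changed by 1 on the log2 scale and 100% of those changed by 2, with 9 false calls. For the lining class difference (11521 genes tested) these were 22% and 97%, with 8 false calls. The simulated counts had the same spread for every gene. They held no difference of library or sex and no animal effect shared by the classes. These rates therefore check the fits only and do not give the error rates of the real comparisons.

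The named genes are the 10 largest changes in each direction among called genes of at least 10 CPM whose groups do not overlap, up to 4 called members of each gene list, up to 5 genes in each direction of each class difference, and 23 genes always given. Sex-linked genes were set apart. Some genes that meet this rule are not reported here. The members, lists and named genes were chosen with earlier results of these data known. Fits with sex were added after seeing that the groups differed in sex. Coordinates are those of GENCODE on GRCm38, and promoters come from the RefSeq table on GRCm38.p6. Of the genes tested, 14339 had coordinates. Precision is set by 3 animals a group, and depth covers counting error only.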

Additional observations from a re-analysis of the deposited data

Results flagged for a closer look

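The change between IL-17-inhibited and TNF-inhibited animals differed between fibroblast classes in an edgeR test of that difference with the animal as a block (adjusted p under 0.05). It differed from the mean of the other 3 classes for 251 genes in lining, 7 in Mmp3+, 33 in Il6+ and 37 in Cd200+ fibroblasts. In lining fibroblasts, the differences in log2 units were 2.32 for Bglap2, 2.96 for Il1rl1, 2.45 for Il11, 2.41 for Lmo2, 2.30 for Htra4, -4.81 for Tnfrsf9, -2.56 for Fmo1, -2.40 for H2-Ab1, -2.36 for Glipr1 and -2.01 for Nos2. Mmp3+ fibroblasts had differences of -2.33 for Gpc3, -1.78 for Angptl1, -1.59 for Adamtsl1, -1.54 for Vldlr and -1.02 for Sox5. For Il6+ fibroblasts the values were 1.33 for Lcn2, 1.39 for Fmo1, 1.48 for Ptx3, 1.37 for En1, 1.31 for Dio2, -2.26 for Cthrc1, -2.12 for Pla2g5, -2.10 for Gldc, -1.66 for Pamr1 and -1.61 for Lmcd1. Those of Cd200+ fibroblasts were -1.77 for Il1rl1, 2.19 for Nos2, 1.66 for Hsd11b1, 1.59 for Foxs1, 1.55 for Gas7, 1.51 for Gm16685, -3.91 for Gm49257, -2.52 for Lmo7, -1.67 for Fam13c and -1.37 for Ifi203.

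Many of these calls rest on single animals. In lining fibroblasts the call was lost for Fmo1 without TNF-inhibited animal 2, for Glipr1 without TNF-inhibited animal 1 or 2 or IL-17-inhibited animal 1 or 3, for H2-Ab1 without TNF-inhibited animal 2 or IL-17-inhibited animal 2, for Il11 without TNF-inhibited animal 1 or 2 or any 1 of the IL-17-inhibited animals, for Lmo2 without IL-17-inhibited animal 2 or 3 (adjusted p up to 0.383). Limma-voom ended the lining calls of Glipr1, Fmo1, H2-Ab1 and Il11 (adjusted p = 0.0626 to 0.15). Among the Mmp3+ differences it was lost for Adamtsl1 without TNF-inhibited animal 2 or IL-17-inhibited animal 2, for Angptl1 without any 1 of the TNF-inhibited animals or IL-17-inhibited animal 1, for Gpc3 without TNF-inhibited animal 2 or IL-17-inhibited animal 1, for Sox5 without any 1 of the 6 animals, for Vldlr without TNF-inhibited animal 1 or 2 or IL-17-inhibited animal 1 or 2 (adjusted p up to 0.362). Limma-voom ended the Mmp3+ calls of Gpc3, Angptl1 and Sox5 (adjusted p = 0.107 to 0.251). In Il6+ fibroblasts it was lost for Cthrc1, Fmo1, Lmcd1 and Pamr1 without TNF-inhibited animal 1 or 2 or IL-17-inhibited animal 2 or 3, for Dio2 without TNF-inhibited animal 1 or IL-17-inhibited animal 1 or 2, for En1 without any 1 of the 6 animals, for Gldc without TNF-inhibited animal 1 or 2 or any 1 of the IL-17-inhibited animals, for Lcn2 without TNF-inhibited animal 1 or 2 (adjusted p up to 0.322). Limma-voom ended the Il6+ calls of Lcn2, Pla2g5, Dio2, Lmcd1, Pamr1, Fmo1, Cthrc1, En1 and Gldc (adjusted p = 0.0804 to 0.173). In Cd200+ fibroblasts it was lost for Fam13c without any 1 of the TNF-inhibited animals or IL-17-inhibited animal 1 or 2, for Foxs1 and Il1rl1 without TNF-inhibited animal 1 or 2 or IL-17-inhibited animal 1 or 2, for Gas7 and Gm16685 without TNF-inhibited animal 1, for Hsd11b1 without TNF-inhibited animal 1 or 2 or IL-17-inhibited animal 2 or 3, for Ifi203 without TNF-inhibited animal 1 or IL-17-inhibited animal 2 or 3, for Lmo7 without any 1 of the 6 animals (adjusted p up to 0.218). Limma-voom ended the Cd200+ calls of Gas7, Ifi203, Fam13c, Il1rl1, Lmo7, Gm49257, Foxs1 and Hsd11b1 (adjusted p = 0.0587 to 0.288). Sex by class in the edgeR fit ended the lining calls of Il11 and Lmo2 and the Mmp3+ call of Sox5. It also ended the Il6+ calls of Fmo1, En1, Gldc and Pamr1 and the Cd200+ calls of Hsd11b1 and Lmo7. The adjusted p of these genes in that fit was 0.0534 to 0.155.

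Some of these values rest on classes where a gene is near 0. Tnfrsf9 was at 0.503, 0.22 and 0.627 CPM with IL-17 inhibition and 0.722, 0.212 and 0.311 with TNF inhibition in Il6+ fibroblasts. Gm49257 was at 0.533, 3.63 and 1.77 against 10.9, 9.64 and 50.5 CPM in Cd200+ fibroblasts, and at 1.4, 3.56 and 3.11 against 0.463, 0.227 and 0 in lining fibroblasts. For such genes the fitted size depends on the prior count and is no bound.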

How the results depend on the processing

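Over all fibroblasts, 652 genes were higher and 438 lower. The counts were 301 and 194 with the 6 inhibitor-treated animals alone, 0 and 0 with the WT difference subtracted, and 260 to 640 and 174 to 503 without 1 animal. They were 256 and 223 within females and 474 and 224 within males, fits chosen after seeing the data. DESeq2 (843 and 589), its size factors in edgeR (649 and 444), no filter on low counts (788 and 522) and only cells whose own hashtag had the highest count (471 and 294) stayed within 1.5 times. Without 1 animal, 197 to 1195 genes were called in lining, 658 to 1410 in Mmp3+, 10 to 93 in Il6+ and 27 to 161 in Cd200+ fibroblasts. With no filter there were 1357 in lining, 409 in Il6+ and 576 in Cd200+ fibroblasts, with more genes tested. The 6 animals alone gave 786 in Mmp3+ and DESeq2 217 in Il6+ fibroblasts. The class differences without 1 animal numbered 40 to 644 for lining, 0 to 16 for Mmp3+, 2 to 66 for Il6+ and 5 to 96 for Cd200+ fibroblasts. With the 3 animals without inhibitor they were 401 for lining, 57 for Il6+ and 59 for Cd200+, and with sex by class, added after seeing the data, 137 for lining and 18 for Mmp3+. Limma-voom gave 2 for Mmp3+, 3 for Il6+ and 5 for Cd200+ fibroblasts. The lining share difference of 0.581 percentage points was -0.218 as a share of all annotated cells and -1.91 to 2.62 without 1 animal. With the hashtag number as a replicate block, 480 genes were higher and 379 lower, and 583, 1331, 109 and 120 were called in lining, Mmp3+, Il6+ and Cd200+ fibroblasts. Same-numbered animals correlated at -0.165 to 0.156, so the numbers were not taken to pair them. The cause of these shifts was not tested, and 3 animals a group limit every count.

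These log2 fold changes of named genes changed sign, none of them past the threshold after the change. With the WT difference subtracted they were Il19 2.31, Cfd 0.50, Car9 4.02, Mt3 0.39, Cd36 0.85, Csf3 0.90, Saa1 1.28, Mmp13 0.51, Gm16685 0.25, Pi16 0.11, Sox5 0.13, Ifi203 0.075, Cd200 0.10, Il11 0.11, Lmo2 0.28, Cthrc1 -0.11, Gas7 -0.17, Cxcl5 -0.70, Il17rc -0.030, H2-Ab1 -0.30, Mmp9 -0.030 and H2-Aa -5.64. For Il19, Car9 and H2-Aa a WT animal had no UMIs, as given above, so their subtracted values give no usable size. With the class mix held equal the changes of sign were U90926 0.16, Tnfrsf9 0.35, Gm16685 0.075, Sox5 0.20, Cd200 0.29, Il11 0.66 and Gpc3 0.020. Values within females were Hsd11b1 0.071, Pi16 0.067, Lmo2 0.21, Cxcl9 -0.53, Il17ra -0.19, Il1rl1 -0.18 and Lmo7 -0.019, and within males Sox5 0.18, Cd200 0.31 and Dio2 0.14. Sex as a term gave Lmo2 0.063 and Cxcl9 -0.20, and the replicate block Glipr1 -0.012. Leaving out 1 animal gave ranges of -0.74 to 0.32 for Gm49257, -0.40 to 0.036 for Pi16, -0.47 to 0.19 for Ifi203, -0.36 to 0.34 for Cd200, -0.41 to 0.23 for Dio2, -0.29 to 0.10 for Gpc3, -0.18 to 0.021 for Lmo2, -0.28 to 0.39 for Glipr1, -0.25 to 0.83 for Cxcl9, -0.033 to 0.23 for Il17ra and -0.071 to 0.36 for Il1rl1. Of 93 named genes called over all fibroblasts, 47 kept the call without each of the 6 animals in turn.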
